A study of Mus musculus with 38 samples.

Results

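HGS2 is a mouse cell line of high-grade serous ovarian cancer, derived from female C57BL/6 mice, that forms tumors in the omentum, the fatty apron of the abdomen, after injection into the peritoneal cavity of immunocompetent mice. The HGS2 omental tumors collected 7 days after the last dose of chemotherapy (TP2) are described here, with 3 chemo-treated tumors set against 4 control tumors by the group written in the sample labels. These 7 tumors belong to a series of 38 samples, 34 of them tumors and 17 of these from HGS2. The mice were female C57BL/6J, aged 8 to 9 weeks when the cells were injected. From day 49 after injection, treated mice received carboplatin at 20 mg/kg with paclitaxel at 10 mg/kg intraperitoneally, once a week for 3 doses, and control mice received the vehicle (Kolliphor EL, ethanol, water and PBS). No label gives a genotype of the mice other than their strain, and every tumor in the model grew from the same injected line. The RNA came from a frozen piece of omental tumor, so each library mixes malignant cells with stroma, vessels, fat and immune cells. The 2 other HGS2 collections used for comparison were taken 1 day (TP1, 3 control and 3 treated) and 21 days (TP3, 4 treated, of which replicate 1 was left out of the fit, and no controls) after the last dose. A second line, 60577, grown in FVB mice and given the same drugs and doses from day 21, was collected at TP2 with 3 control and 4 treated tumors, so that line, strain and tumor age at treatment cannot be told apart between the models.

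Carboplatin crosslinks DNA and paclitaxel holds microtubules together, so that dividing cells stall and can die. DNA damage activates p53, which switches on the cell cycle inhibitor Cdkn1a, and DNA that reaches the cytoplasm can start a type I interferon program. Interferons raise the machinery that presents peptides on MHC class I and raise PD-L1 (Cd274), a ligand that restrains T cells.

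The deposited expected counts of the 7 libraries summed to between 24519694 and 39153745 (median 27759743). Control 2 stood apart. Digestive enzyme genes of pancreatic acinar cells made up 12.6% of its counts, against 0.223% in control 4, 0.123% in treated 2 and at most 0.002% in the other 4 tumors, and its scaling factor was 0.691. The mesothelial markers Msln, Upk3b and Wt1, which the HGS2 line in monoculture also carries, were present in all 7 tumors, whereas Epcam ran from 0.317 to 11.5 CPM (counts scaled to a common library size by TMM) and the Müllerian factor Pax8 was under the expression filter. Epcam was at most 0.159 CPM and Pax8 at most 0.063 CPM in the 2 monoculture libraries of the line as well, while its keratins Krt7, Krt8, Krt18 and Krt19 were at 71.5 to 941 CPM. Markers of macrophages (Csf1r at 367 to 645 CPM) and of T cells (Cd3e at 0.668 to 14.8 CPM) were present in every tumor. For the immune lists, medians and counts are given with and without control 2 and treated 2.

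No gene differed between treated and control tumors past the test. A gene was called at an adjusted p under 0.05 with an absolute log2 fold change over 1. Of the 16241 genes tested (13926 protein coding), 0 were called by the quasi-likelihood test of edgeR after Benjamini-Hochberg adjustment (0% called in either direction), and the smallest adjusted p was 0.588. At an unadjusted p under 0.05 there were 780 genes higher (4.8%) and 453 lower (2.79%), and at an unadjusted p under 0.01 there were 206 higher (1.27%) and 56 lower (0.345%). limma-voom also called 0 genes, with 799 higher and 453 lower at an unadjusted p under 0.05. The DESeq2 Wald test called 5 higher (Slfn4, Crabp2, Cxcl5, Klrg1 and Batf2) and 3 lower (Sdr39u1 and Olfr1372-ps1 among them), and a fit of the 7 tumors alone called 1, the pseudogene Olfr1372-ps1. The median standard error of a log2 fold change was 0.282, and the 95% interval of a gene reached a median of 0.607 to either side, against a median absolute log2 fold change of 0.235. In counts simulated for this comparison over 16241 genes, the test recovered 20% of 100 genes shifted by 1 on the log2 scale and 67% of 100 shifted by 2. Changes of up to that smaller size in single genes were thus mostly not detectable with these tumors.

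The 206 higher genes at an unadjusted p under 0.01 kept their direction when control 2, treated 2 or both were left out, but 59, 40 and 19 of them, in that order, stayed under 0.01. The total at that limit was 66 higher and 15 lower genes without control 2, 62 and 23 without treated 2, and 29 and 7 without both. It was 114 and 23 without treated 3, 131 and 62 without control 4, and 112 and 61 with the replicate number as a block. The 4 control and 3 treated values did not overlap in 1031 genes higher (6.35%) and 1147 lower (7.06%), and this held for 187 of the 206 and for 53 of the 56. Of the 206 higher genes, 101 (49.03%) were at 1 CPM or more in both monocultures of the HGS2 line, against 51 of the 56 lower genes (91.1%) and 11899 of all 16241 (73.3%).

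The spread between tumors was as large as the shift with treatment. The distance between 2 tumors, defined as 1 minus Pearson's r between their log2 CPM values, averaged 0.0713 between a treated and a control tumor and 0.0693 within a group. The difference of 0.00203 was not past the spread (exact permutation test over 35 splits of the 7 tumors, one-sided, p = 0.343, the smallest possible being 0.0286). Control 2 was farthest from the others (mean distance 0.108), then treated 2 (0.0831), while the other 5 averaged 0.0519 to 0.069 and treated 1 and treated 3 were the closest pair (0.0211). Without treated 2 the difference turned to -0.00673, and without treated 3 to -0.0024.

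**Figure D1:**
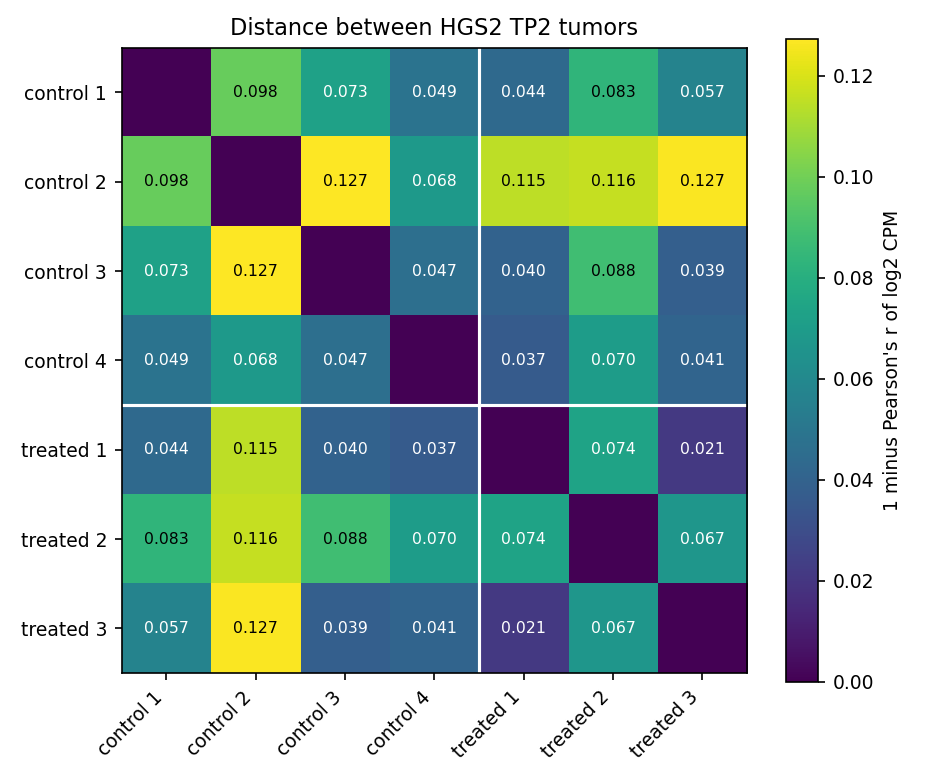
Distance between each pair of the 7 HGS2 TP2 tumors (1 minus Pearson's r of log2 CPM, colour scale from 0 upward), with white lines between the control and treated groups. Control 2 and treated 2 have the large distances to tumors of either group, and treated 1 and treated 3 are nearest to each other at 0.0211.

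The higher genes with the smallest p-values are given first. All of the following are protein coding, had an adjusted p of 0.588 and are given as values, with positions on GRCm38. Nfkbiz (chr16:55811375-55838899), which encodes the NF-kappaB cofactor IkappaB-zeta, was at 44.0, 37.3, 47.0 and 45.9 CPM in controls 1 to 4 and 67.7, 98.1 and 75.2 CPM in treated tumors 1 to 3 (log2 fold change 0.88, SE 0.175, unadjusted p = 0.000192). Batf2 (chr19:6140983-6172476), a transcription factor of interferon-activated macrophages, was at 5.46, 2.64, 4.35 and 6.43 CPM in controls 1 to 4 and 12.5, 18.6 and 17.4 CPM in treated tumors 1 to 3 (log2 fold change 1.78, SE 0.381, unadjusted p = 0.000404). In both genes every treated tumor was above every control and the 3 treated values stayed within 1.5-fold of each other.

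Cxcl5 (chr5:90759360-90761624), a chemokine that attracts neutrophils through Cxcr2, was at 1.09, 2.08, 0.365 and 5.43 CPM in controls 1 to 4 and 11.4, 18.9 and 24.2 CPM in treated tumors 1 to 3 (log2 fold change 3.02, SE 0.716, unadjusted p = 0.000931). Cfb (chr17:34856374-34862518), complement factor B of the alternative pathway, was at 34.8, 26.8, 73.8 and 50.3 CPM in controls 1 to 4 and 130.2, 187 and 160.4 CPM in treated tumors 1 to 3 (log2 fold change 1.78, SE 0.429, unadjusted p = 0.00105). Il2ra (chr2:11642807-11693193), the high-affinity chain of the interleukin 2 receptor carried by regulatory and activated T cells, was at 1.76, 1.15, 5.04 and 3.21 CPM in controls 1 to 4 and 9.02, 19.0 and 14.1 CPM in treated tumors 1 to 3 (log2 fold change 2.33, SE 0.590, unadjusted p = 0.00155). In these genes too the groups did not overlap, and in Cfb and Il2ra control 3 was the highest control.

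Slfn4, a Schlafen family gene of myeloid cells, had the largest of these log2 fold changes (5.10, SE 1.19) with 1 tumor far above the rest, and was at 2.82, 2.49, 7.49 and 3.18 CPM in controls 1 to 4 and 17.7, 378 and 14.6 CPM in treated tumors 1 to 3. Crabp2, which carries retinoic acid in the cytoplasm, was at 9.62, 4.60, 3.58 and 7.82 CPM in controls 1 to 4 and 22.8, 27.0 and 21.2 CPM in treated tumors 1 to 3 (log2 fold change 1.88, SE 0.438, unadjusted p = 0.000792). The other higher genes chosen by smallest p were Klrg1, a receptor of NK and effector T cells (2.93), Ifi205 (1.52), the G-CSF receptor Csf3r (1.32), the leukotriene receptor Cysltr2 (1.497), Trafd1 (0.90), Parp11 (1.03), Gm5150 (2.16) and the inhibitory myeloid receptor Pirb (1.11), each a log2 fold change with non-overlapping groups. The 17 higher genes that stayed at an unadjusted p under 0.01 with every tumor left out in turn included Nfkbiz, Batf2, Klrg1, Crabp2, Cxcl5, Cfb, Ifi205, Csf3r, Cysltr2, Il2ra, Gm5150 and Pirb, together with Adam8, Irgm2, Gbp6 and 2 pseudogenes. Slfn4, Pirb, Gm5150, Gbp6 and Irgm2 belong to families of close paralogs, among which reads could be split uncertainly.

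**Figure D2:**
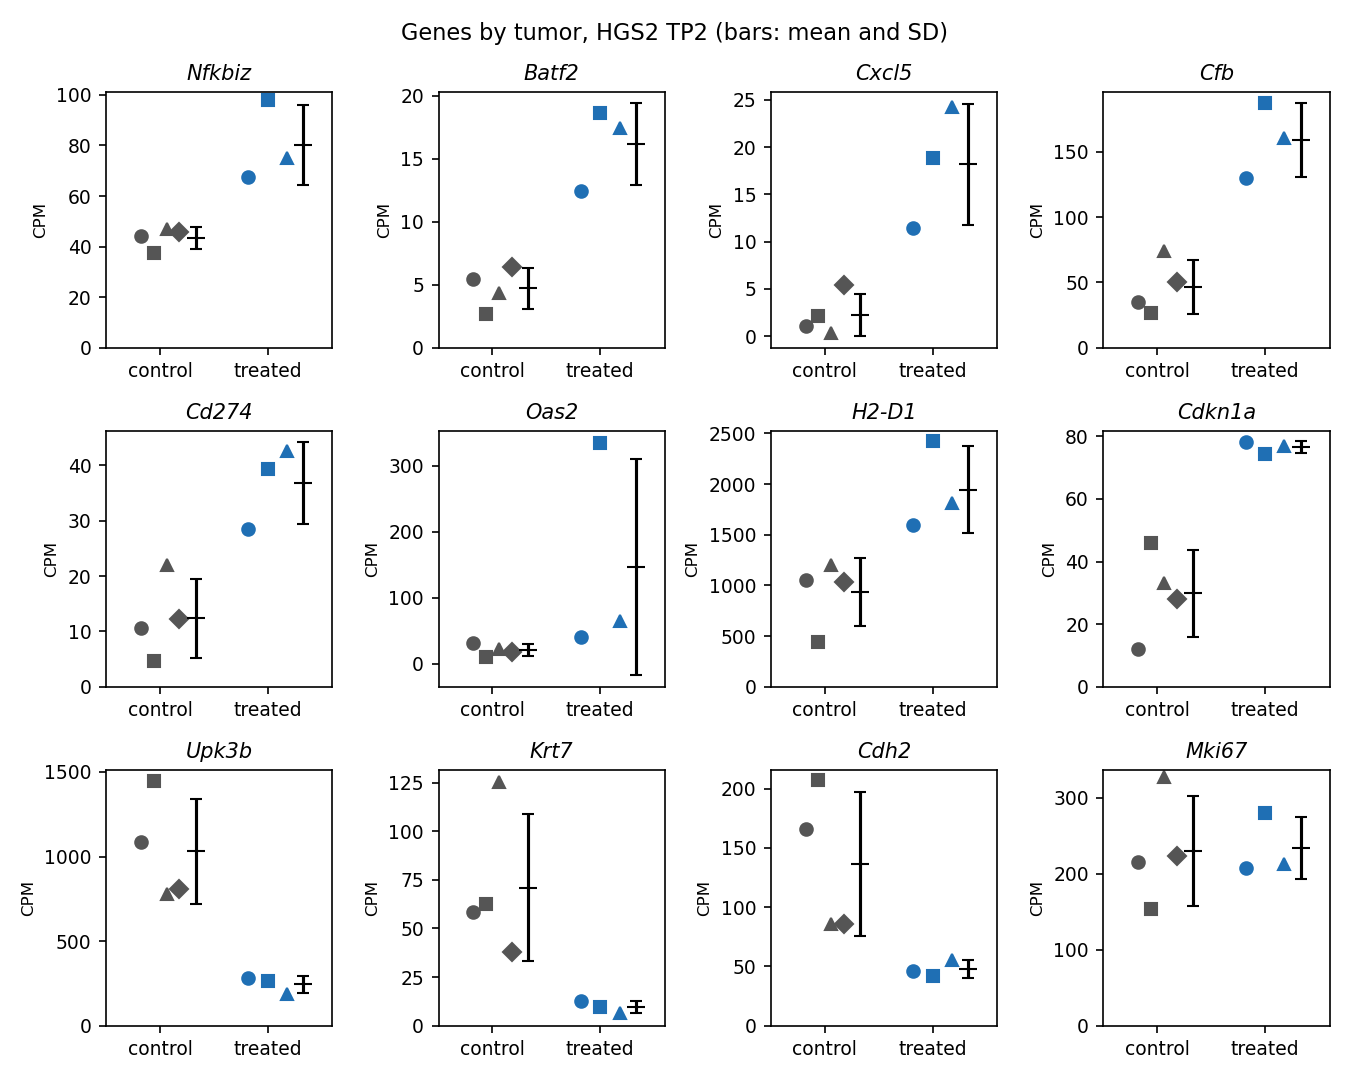
Level (CPM) of 12 genes in the 4 control (grey) and 3 treated (blue) HGS2 tumors at TP2, each panel on its own linear axis, with circle, square, triangle and diamond for replicates 1 to 4 and bars for mean and SD. Nfkbiz, Batf2, Cxcl5, Cfb, Cd274, Oas2, H2-D1 and Cdkn1a are higher and Upk3b, Krt7 and Cdh2 lower in every treated tumor than in every control, none of them past the adjusted test, while Mki67 overlaps.

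Interferon-stimulated genes were higher in the treated tumors than in the TP2 controls as a group, and most of all in treated 2. All 27 of 27 measured members had a positive log2 fold change with a median of 1.66, against a median of -0.023 over all genes tested. None passed the adjusted test, 27 of 27 were at an unadjusted p under 0.05 (all genes 4.8%), 14 were under 0.01 (all genes 1.27%), and 16 had groups that did not overlap (all genes 6.35%). Relative to the mean of the 7 tumors, the median member stood at 0.092, -1.75, -0.51 and -0.91 in controls 1 to 4 and 0.12, 2.06 and 0.51 in treated tumors 1 to 3, on the log2 scale. Control 1 was therefore level with treated 1, control 2 was lowest and treated 2 was highest by far.

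Oas2, a sensor that makes the messenger activating RNase L, was at 31.6, 9.95, 23.2 and 18.1 CPM in controls 1 to 4 and 40.6, 335 and 64.5 CPM in treated tumors 1 to 3 (log2 fold change 2.82, SE 0.781, unadjusted p = 0.00297). Stat2, a transcription factor of type I interferon signaling, was at 78.1, 28.5, 54.4 and 56.2 CPM in controls 1 to 4 and 82.1, 317 and 115 CPM in treated tumors 1 to 3 (log2 fold change 1.66, SE 0.480, unadjusted p = 0.00402). Irf1, an early interferon response factor, was at 72.8, 37.0, 76.5 and 73.7 CPM in controls 1 to 4 and 128, 102 and 157 CPM in treated tumors 1 to 3 (log2 fold change 0.99, SE 0.323, unadjusted p = 0.00864). Oas2 and Stat2 were highest in treated 2, whereas Irf1 was not led by a single tumor. In TP1 controls, however, Oas2 ran from 27.1 to 59.6 CPM (median 31.6) and Stat2 from 60.9 to 121 CPM (median 82.7). These ranges reach above TP2 treated 1 in both genes and above TP2 treated 3 in Stat2.

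Mx1, an antiviral GTPase, was at 13.2, 2.60, 8.48 and 4.43 CPM in controls 1 to 4 and 14.7, 131 and 15.6 CPM in treated tumors 1 to 3, and Isg15, a ubiquitin-like modifier, was at 29.6, 5.46, 19.9 and 9.61 CPM in controls 1 to 4 and 19.1, 136 and 27.4 CPM in treated tumors 1 to 3, so that Isg15 overlapped between the groups and was under the unadjusted limit of 0.05 alone (unadjusted p = 0.0364, edgeR). The list's median went from 1.66 to 1.51 without control 2, to 0.88 without treated 2 and to 0.67 without both. The members at an unadjusted p under 0.01 numbered 0 without control 2 (23 under 0.05), 2 without treated 2 (4 under 0.05), 0 without both (3 under 0.05) and 0 with the replicate block (20 under 0.05), in edgeR throughout. With 2 treated tumors left, the direction stayed and most members no longer reached 0.05. With the level of pancreatic acinar genes as a covariate, the median was 1.63 with 7 members under 0.01. In the monocultured line, 25 of the 27 were at 1 CPM or more. In bulk RNA, a change in the number of cells of a type and a change in RNA per cell cannot be told apart.

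**Figure D3:**
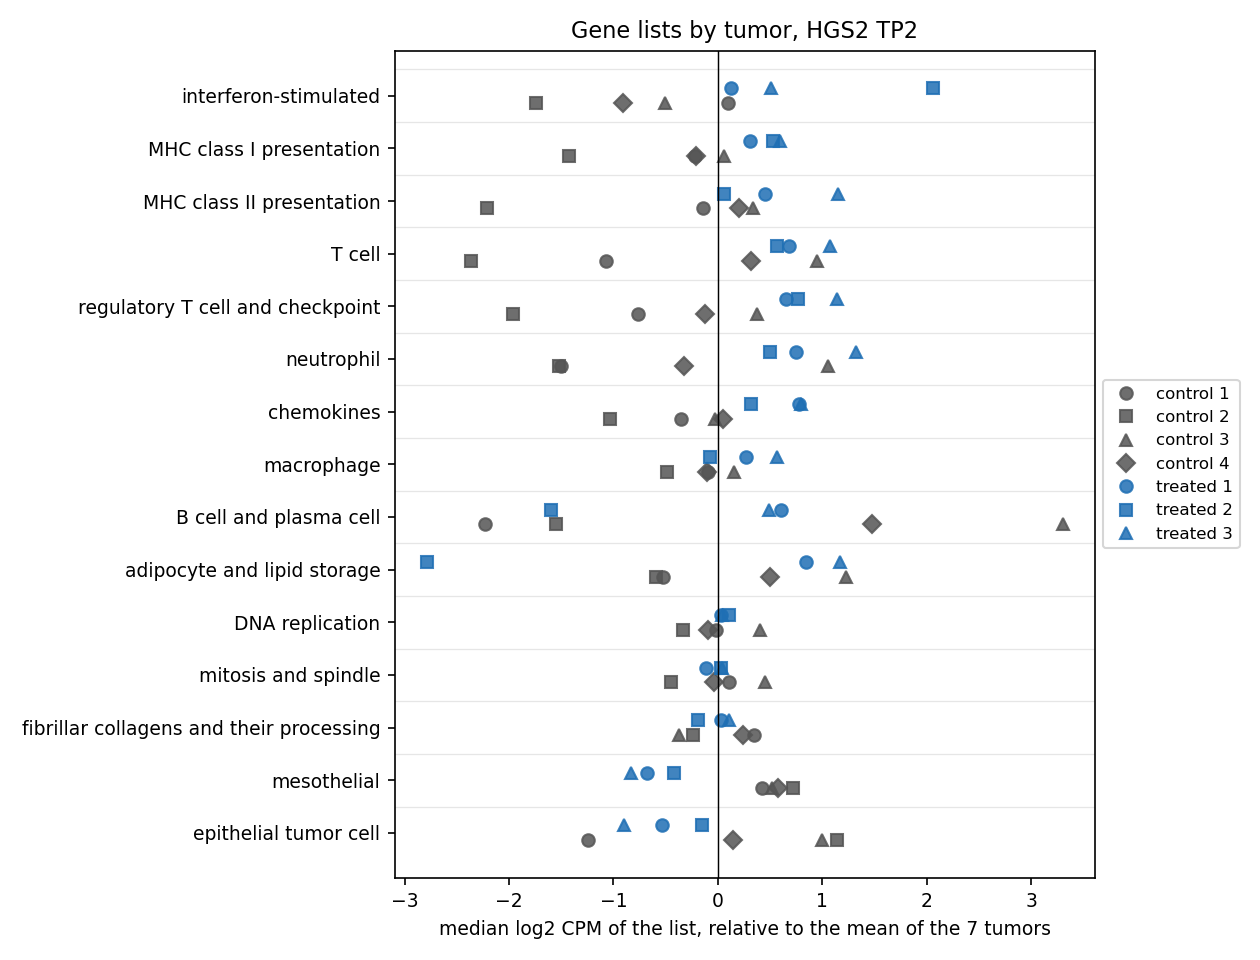
Median log2 CPM of 15 gene lists in each HGS2 TP2 tumor, relative to the mean of the 7 tumors (grey: controls, blue: treated; circle, square, triangle and diamond for replicates 1 to 4). The interferon-stimulated list reaches 2.06 in treated 2, control 2 is lowest in the interferon, MHC, T cell and chemokine lists, the mesothelial list separates the groups, and the B cell and adipocyte lists spread widely within both groups.

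The promoters of interferon-stimulated genes are shown because all members had log2 fold changes of 1 sign. RefSeq windows of 300 bases (250 before to 50 after the start of the gene, GRCm38.p6) were found for 21 of the 27 genes, and 12 of them (57.1%) held GAAA and GAAA separated by any 2 bases, on either strand, the core of the interferon-stimulated response element, against 1079 of 27025 genes with a window (3.99%). A gene counts once if any of its windows holds a match, and a match is a description of the sequence. Below are the 250 bases before the start, 5′ to 3′ along the gene, for 4 members at an unadjusted p under 0.01, with the motif or its reverse complement in capitals.
Ifit3 (chr19:34583279-34583528, plus strand): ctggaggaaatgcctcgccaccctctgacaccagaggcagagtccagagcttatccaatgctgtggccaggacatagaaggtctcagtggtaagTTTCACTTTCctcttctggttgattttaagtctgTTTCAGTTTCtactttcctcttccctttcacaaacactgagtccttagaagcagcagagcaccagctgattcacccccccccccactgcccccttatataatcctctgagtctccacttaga
Stat2 (chr10:128270248-128270497, plus strand): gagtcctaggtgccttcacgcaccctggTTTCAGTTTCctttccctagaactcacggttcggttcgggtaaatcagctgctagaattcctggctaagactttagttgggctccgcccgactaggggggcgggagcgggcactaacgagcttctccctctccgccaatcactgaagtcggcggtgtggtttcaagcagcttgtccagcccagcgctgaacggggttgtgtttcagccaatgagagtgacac
Oas1a (chr5:120907526-120907775, minus strand): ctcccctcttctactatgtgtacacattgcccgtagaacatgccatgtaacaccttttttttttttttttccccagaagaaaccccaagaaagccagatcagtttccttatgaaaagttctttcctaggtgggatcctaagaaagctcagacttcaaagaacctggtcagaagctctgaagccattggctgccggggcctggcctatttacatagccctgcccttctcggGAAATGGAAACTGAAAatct
Gbp3 (chr3:142559794-142560043, plus strand): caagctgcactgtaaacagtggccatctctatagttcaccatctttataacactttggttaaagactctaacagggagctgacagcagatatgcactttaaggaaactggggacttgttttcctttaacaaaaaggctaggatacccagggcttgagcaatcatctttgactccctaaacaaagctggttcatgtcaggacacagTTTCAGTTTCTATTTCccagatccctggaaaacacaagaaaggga
Ifit3 holds a pair of separate matches, Oas1a and Gbp3 hold overlapping matches close to the start, and Stat2 holds 1 match 222 bases before it. Gbp3 has another RefSeq window, farther downstream, whose 250 bases held 0 matches. Log2 fold changes of these genes were 2.36 (Ifit3), 1.66 (Stat2), 1.62 (Oas1a) and 1.54 (Gbp3).

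All 15 measured genes of MHC class I presentation were positive, with a median log2 fold change of 0.85. There were 3 at an unadjusted p under 0.01 (all genes 1.27%), 9 under 0.05 (all genes 4.8%) and 12 with non-overlapping groups (all genes 6.35%), and 0 past the adjusted test. H2-D1, a classical class I heavy chain, was at 1053, 445, 1203 and 1035 CPM in controls 1 to 4 and 1597, 2426 and 1815 CPM in treated tumors 1 to 3 (log2 fold change 1.06, SE 0.338, unadjusted p = 0.00761). Its TP1 controls were at 725 to 1357 CPM (median 896), below the TP2 treated tumors. H2-T23, which encodes the non-classical molecule Qa-1, was at 138, 61.3, 152 and 154 CPM in controls 1 to 4 and 212, 282 and 271 CPM in treated tumors 1 to 3 (log2 fold change 1.01, SE 0.316, unadjusted p = 0.00645). Nlrc5, the transactivator of class I genes, was at 65.7, 15.96, 82.4 and 67.5 CPM in controls 1 to 4 and 121, 412 and 170.2 CPM in treated tumors 1 to 3 (log2 fold change 2.02, SE 0.651, unadjusted p = 0.00805).

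The peptide transporter subunits Tap1 and Tap2 had log2 fold changes of 1.28 and 0.85, and the light chain B2m 0.80, all with every treated tumor above every control. The proteasome activator subunits Psme1 (0.23) and Psme2 (0.21) overlapped between the groups. Control 2 was the lowest tumor in H2-D1, H2-T23 and Nlrc5, and the list's median was 0.67 without it, 0.85 without treated 2 and 0.61 without both. The members under 0.01 went from 3 to 0 in each of these omissions and with the replicate block, and those under 0.05 from 9 to 6 without control 2, 3 without treated 2 and 1 without both, and to 5 with the block (edgeR). H2-D1, H2-K1 and H2-Q4 are similar in sequence, and the division of reads among them is uncertain.

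MHC class II genes, which mark antigen-presenting cells, had a median log2 fold change of 0.79 over 11 members. In edgeR 0 were at an unadjusted p under 0.05, and 2 had non-overlapping groups (all genes 6.35%), Ctss (0.79) and H2-DMb1 (0.89). The invariant chain Cd74 was at 1335, 306, 1801 and 1544 CPM in controls 1 to 4 and 2053, 1475 and 3302 CPM in treated tumors 1 to 3. Treated 2 lay within the range of the controls and control 2 was far below all other tumors, and the list's median was 0.48 without control 2, 0.96 without treated 2 and 0.67 without both.

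Genes of regulatory T cells and of immune checkpoints were higher in every treated tumor than in every control for 13 of 19 members. Of 20 members 19 were tested, 18 had a positive log2 fold change (median 1.24), 2 were at an unadjusted p under 0.01 (all genes 1.27%), 6 under 0.05 (all genes 4.8%) and 13 had groups that did not overlap (all genes 6.35%), and 0 passed the adjusted test. Cd274, which encodes PD-L1, was at 10.7, 4.68, 21.96 and 12.2 CPM in controls 1 to 4 and 28.4, 39.4 and 42.6 CPM in treated tumors 1 to 3 (log2 fold change 1.57, SE 0.442, unadjusted p = 0.00335). Foxp3, the factor that defines regulatory T cells, was at 2.04, 0.408, 5.15 and 3.25 CPM in controls 1 to 4 and 7.99, 9.78 and 9.44 CPM in treated tumors 1 to 3 (log2 fold change 1.74, SE 0.736, unadjusted p = 0.0337). Ctla4 was at 0.564, 0.371, 2.37 and 1.68 CPM in controls 1 to 4 and 3.05, 5.79 and 5.67 CPM in treated tumors 1 to 3 (log2 fold change 1.95, SE 0.991, unadjusted p = 0.0697).

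In Cd274, Foxp3 and Ctla4 the highest control, control 3, was still below the lowest treated tumor. In TP1 controls, however, Cd274 ran from 12.4 to 30.4 CPM (median 12.9), a range that includes TP2 treated 1. Pdcd1, which encodes PD-1, had a log2 fold change of 1.43 with values that almost met (control 3 at 6.17 CPM and treated 2 at 6.35 CPM). Lag3 (0.86), Havcr2 (0.76) and Tigit (1.10) overlapped, and Btla, which B cells also carry, was -0.998. The list's median was 0.99 without control 2, 1.32 without treated 2 and 1.08 without both, and the members under 0.05 numbered 3 without control 2, 6 without treated 2 and 3 without both (edgeR). The 2 members under 0.01, Il2ra and Cd274, both stayed there without control 2, 1 did without treated 2 and 1 with the replicate block (edgeR), and 0 did without both.

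Pan-T cell genes were positive throughout but spread too widely to separate the groups. All 19 members had a positive log2 fold change (median 0.95), 0 were at an unadjusted p under 0.05 in edgeR, and 2, Cd8a and Cd8b1, did not overlap (all genes 6.35%). Cd3e, a subunit of the T cell receptor complex, was at 3.49, 0.668, 11.9 and 7.75 CPM in controls 1 to 4 and 11.0, 8.33 and 14.8 CPM in treated tumors 1 to 3 (log2 fold change 0.93, SE 0.948, unadjusted p = 0.343). Cd8a, which marks cytotoxic T cells, was at 4.54, 0.371, 7.31 and 5.71 CPM in controls 1 to 4 and 12.4, 11.5 and 20.00 CPM in treated tumors 1 to 3 (log2 fold change 1.71, SE 1.16, unadjusted p = 0.165), and Cd4 was at 4.12, 1.93, 15.4 and 12.1 CPM in controls 1 to 4 and 14.6, 14.0 and 12.5 CPM in treated tumors 1 to 3 (log2 fold change 0.71). Controls 1 and 2 were low in T cell genes and control 3 was as high as the treated tumors in Cd3e and Cd4. The median of the list was 0.57 without control 2, 0.98 without treated 2 and 0.61 without both.

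Of 17 genes of cytotoxic lymphocytes, NK cells and Th1 cells, 12 were tested, and the granzymes Gzma, Gzmb and Gzmk, Ncr1 and Ifng were under the filter. All 12 were positive (median 1.27), 3 were at an unadjusted p under 0.05 in edgeR (all genes 4.8%) and 5 did not overlap (all genes 6.35%). Ccl5, a chemokine released by activated T cells, was at 4.33, 1.78, 8.404 and 4.57 CPM in controls 1 to 4 and 23.3, 12.1 and 16.4 CPM in treated tumors 1 to 3 (log2 fold change 1.85, SE 0.771, unadjusted p = 0.0312), and Klrk1, which encodes the NK receptor NKG2D, was at 2.68, 0.445, 6.61 and 2.57 CPM in controls 1 to 4 and 7.25, 11.8 and 11.3 CPM in treated tumors 1 to 3 (log2 fold change 1.72, SE 0.768, unadjusted p = 0.0425). Prf1, which encodes perforin, overlapped (1.40). The median of the list was 0.90 without control 2, 1.03 without treated 2 and 0.66 without both, and the members under 0.05 went from 3 to 0 without control 2, 1 without treated 2 and 0 without both (edgeR).

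Among 22 macrophage genes the median log2 fold change was 0.48, with 18 positive and 6 non-overlapping and higher (all genes 6.35%). Adgre1, which encodes F4/80, was at 176, 113, 120.2 and 168 CPM in controls 1 to 4 and 256, 222 and 274 CPM in treated tumors 1 to 3 (log2 fold change 0.80, SE 0.280, unadjusted p = 0.0132), while Csf1r, the growth factor receptor of the lineage, was at 466, 367, 605 and 492 CPM in controls 1 to 4 and 494, 523 and 645 CPM in treated tumors 1 to 3 (log2 fold change 0.20). Fcgr1, the high-affinity IgG receptor, was at 50.5, 20.9, 41.7 and 39.8 CPM in controls 1 to 4 and 60.3, 72.0 and 81.6 CPM in treated tumors 1 to 3 (log2 fold change 0.90, SE 0.299, unadjusted p = 0.00959). Cd163 (-1.62) and Lyve1 (-1.93), carried by resident tissue macrophages, had negative values with wide overlap. The median of the list was 0.36 without control 2, 0.63 without treated 2 and 0.48 without both, and the members under 0.05 went from 3 to 2 without control 2, 4 without treated 2 and 3 without both (edgeR).

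Of 17 monocyte and dendritic cell genes 15 were positive (median 0.91, 4 non-overlapping, all genes 6.35%), and the median was 0.66 without control 2, 0.85 without treated 2 and 0.53 without both. Batf3, needed by cross-presenting dendritic cells, was at 2.64, 1.37, 3.14 and 3.07 CPM in controls 1 to 4 and 4.96, 6.65 and 5.93 CPM in treated tumors 1 to 3 (log2 fold change 1.19, SE 0.392, unadjusted p = 0.00914). Of 16 neutrophil genes 9 were tested and the granule genes Camp, Ltf, Ngp, Elane and Mpo as well as Ly6g and Retnlg were under the filter. The median of the 9 was 1.29, or 0.95 without control 2, 1.24 without treated 2 and 1.06 without both. The calgranulins S100a8 (-0.10) and S100a9 (-0.20) had negative values, and the members under 0.01 were Hdc and the receptor Csf3r, the latter at 17.6, 8.83, 19.5 and 13.8 CPM in controls 1 to 4 and 30.2, 41.0 and 40.5 CPM in treated tumors 1 to 3 (log2 fold change 1.32, SE 0.321, unadjusted p = 0.00116). The defining marker Ly6g was at or near 0 in all 7 tumors.

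Chemokines (21 of 24 tested) had a median log2 fold change of 0.84, with 17 positive, 6 at an unadjusted p under 0.05 in edgeR (all genes 4.8%) and 8 not overlapping (all genes 6.35%). The list's median was 0.70 without control 2, 1.05 without treated 2 and 0.91 without both, and the members under 0.05 went from 6 to 4 without control 2, 5 without treated 2 and 1 without both (edgeR). Cxcl10, an interferon-induced attractant of T cells, was at 25.8, 3.38, 42.3 and 16.6 CPM in controls 1 to 4 and 66.7, 165 and 61.3 CPM in treated tumors 1 to 3 (log2 fold change 2.15, SE 0.746, unadjusted p = 0.0125). Ccl7, which attracts monocytes, was at 22.3, 6.72, 11.2 and 15.2 CPM in controls 1 to 4 and 39.3, 47.1 and 36.4 CPM in treated tumors 1 to 3 (log2 fold change 1.56, SE 0.542, unadjusted p = 0.0124), and Ccl8 at 29.6, 9.21, 37.9 and 50.6 CPM in controls 1 to 4 and 98.7, 54.6 and 108 CPM in treated tumors 1 to 3 (log2 fold change 1.46, SE 0.620, unadjusted p = 0.0348). Each was higher in all 3 treated tumors than in all controls. Cxcl13, an attractant of B cells, went the other way, at 8.24, 15.9, 77.6 and 32.7 CPM in controls 1 to 4 and 10.9, 3.66 and 19.7 CPM in treated tumors 1 to 3 (log2 fold change -1.56).

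The cytokine list (16 of 20 tested) had a median of 0.79, 14 positive members and 5 that did not overlap (all genes 6.35%). Its median was 0.56 without control 2, 0.89 without treated 2 and 0.67 without both, and the members at an unadjusted p under 0.05 went from 6 to 3 without control 2, 2 without treated 2 and 1 without both (edgeR). Il15, which sustains NK and memory T cells, was at 2.71, 1.34, 1.79 and 2.14 CPM in controls 1 to 4 and 3.29, 8.78 and 3.85 CPM in treated tumors 1 to 3 (log2 fold change 1.41, SE 0.412, unadjusted p = 0.00438), and Il1b, the inflammasome product, was at 2.78, 1.63, 8.92 and 11.5 CPM in controls 1 to 4 and 16.8, 13.4 and 38.6 CPM in treated tumors 1 to 3 (log2 fold change 1.89, SE 0.725, unadjusted p = 0.0214). Among 18 complement genes (median 0.51, or 0.42 without control 2, 0.56 without treated 2 and 0.41 without both), Cfb was the member at an unadjusted p under 0.01, and C3, the central component, was at 1519, 2117, 2316 and 3028 CPM in controls 1 to 4 and 2984, 1509 and 2651 CPM in treated tumors 1 to 3 (log2 fold change 0.085), which overlapped.

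B cell and fat cell genes spread over a wide range within both groups. The 17 tested B cell and plasma cell genes all had negative log2 fold changes (median -1.10), none at an unadjusted p under 0.05, and none separated the groups. Ms4a1, which encodes CD20, was at 0.599, 0.297, 58.8 and 10.3 CPM in controls 1 to 4 and 6.11, 1.49 and 4.14 CPM in treated tumors 1 to 3, with control 3 the highest tumor and control 4 next. Igkc, the kappa light chain of plasma cells, was at 86.3, 689.6, 1111 and 1126 CPM in controls 1 to 4 and 928, 6.83 and 1189.8 CPM in treated tumors 1 to 3, with treated 2 and control 1 at the bottom. The list's median was -1.46 without control 2, -0.90 without treated 2 and -1.25 without both, and over the omissions of each single tumor it ran from -2.03 to 0.094. Adipocyte genes (19 of 20 tested) had a median of 0.21, or 0.052 without control 2, 0.76 without treated 2 and 0.40 without both, and treated 2 stood at -2.79 relative to the mean of the 7 tumors with the fat cell marker Plin1 at 0 counts, against a range of -0.60 to 1.23 in the other 6.

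Some p53 targets were higher in every treated tumor, and the median of the list was near that of all genes. Cdkn1a, which encodes p21, was at 12.2, 45.8, 33.3 and 28.2 CPM in controls 1 to 4 and 78.2, 74.5 and 76.8 CPM in treated tumors 1 to 3 (log2 fold change 1.36, SE 0.425, unadjusted p = 0.00671), with the 3 treated tumors within a few CPM of each other and above every control. Mdm2, the ubiquitin ligase that restrains p53, was at 49.6, 44.6, 51.3 and 44.4 CPM in controls 1 to 4 and 55.7, 67.3 and 62.5 CPM in treated tumors 1 to 3 (log2 fold change 0.38, SE 0.106, unadjusted p = 0.00303). Bax, a pore former of apoptosis, was at 27.7, 23.2, 30.1 and 26.0 CPM in controls 1 to 4 and 35.3, 36.0 and 37.7 CPM in treated tumors 1 to 3 (log2 fold change 0.44, SE 0.161, unadjusted p = 0.0160), and Sesn2 had a log2 fold change of 0.65 (unadjusted p = 0.0105, edgeR). These 4 and Aen (0.43) were the 5 members with non-overlapping higher values among 22 (all genes 6.35%), and the median was 0.20. Ccng1 (0.29), Phlda3 (0.46), Zmat3 (0.11) and Trp53inp1 (-0.030) overlapped, and Perp (-2.20), which epithelial cells also use in their junctions, was lower in every treated tumor.

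Proliferation genes did not differ detectably between the groups. The 28 DNA replication genes had a median log2 fold change of 0.055 and the 25 mitosis genes -0.059, with 0 at an unadjusted p under 0.05 in edgeR in either list. Mki67, the antigen of cycling cells, was at 215, 153, 328 and 224 CPM in controls 1 to 4 and 207, 281 and 213 CPM in treated tumors 1 to 3 (log2 fold change 0.022, 95% interval -0.85 to 0.90). Shifts within that interval were not detectable with these tumors. Its sign turned with single tumors left out. Tubulins and stathmin, the targets of paclitaxel and their regulator, had a median of -0.18. The medians for repair of platinum adducts and crosslinks (0.061) and NRF2, glutathione and metallothionein (-0.18) also lay near that of all genes. Of 10 tested drug transport genes 9 were positive (median 0.29) and 3 were higher without overlap (all genes 6.35%). At an unadjusted p under 0.05 in edgeR, 2 of them were higher (all genes 4.8%) and 1 lower (all genes 2.79%).

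Extracellular matrix genes mostly overlapped between the groups. The 22 fibrillar collagen and collagen-processing genes had a median log2 fold change of 0.0087, the 23 tested matrix glycoproteins and proteoglycans 0.21, the 20 basement membrane genes -0.30 and the 24 tested matrix proteases and inhibitors 0.38. At an unadjusted p under 0.05 in edgeR, 3 proteases or inhibitors and 1 collagen-list gene were higher (all genes 4.8%). In the basement membrane list 2 were lower at that limit (all genes 2.79%). Under 0.01 there was 1 higher protease or inhibitor (all genes 1.27%). Col1a1, the main chain of type I collagen, was at 29565, 15269.9, 10212 and 22291 CPM in controls 1 to 4 and 15564, 25892 and 17703 CPM in treated tumors 1 to 3 (log2 fold change 0.028, SE 0.626, unadjusted p = 0.964). Lox, which crosslinks collagen, was at 839, 903, 954 and 956 CPM in controls 1 to 4 and 748, 1211 and 850.2 CPM in treated tumors 1 to 3 (log2 fold change 0.036, SE 0.355, unadjusted p = 0.920). Fn1, fibronectin, was at 11799, 5722, 8489.7 and 7513 CPM in controls 1 to 4 and 11677, 5702 and 9557 CPM in treated tumors 1 to 3 (log2 fold change 0.099, SE 0.337, unadjusted p = 0.772).

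In Col1a1, Lox and Fn1 the ranges of the groups overlapped and the sign changed when a tumor was left out. Vcan had a log2 fold change of 0.24 and Loxl2 of -0.30, both with overlapping groups. Spp1, the osteopontin that macrophages and tumor cells secrete, was the glycoprotein farthest from the controls, at 26.9, 132, 169 and 162 CPM in controls 1 to 4 and 855, 326 and 729 CPM in treated tumors 1 to 3 (log2 fold change 2.38, SE 1.15, unadjusted p = 0.0582). Timp1, an inhibitor of matrix metalloproteases, was at 83.3, 45.8, 159.6 and 143 CPM in controls 1 to 4 and 240.2, 201 and 307 CPM in treated tumors 1 to 3 (log2 fold change 1.21, SE 0.523, unadjusted p = 0.0375). Fibroblast genes had a median of -0.15, TGF-beta ligands and targets 0.011 and endothelial genes 0.12, and the last was 0.25 without control 2, 0.37 without treated 2 and 0.50 without both.

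Mesothelial genes were lower in the treated tumors than in the TP2 controls. Of the 11 members 10 had a negative log2 fold change (median -1.03), and 8 had groups that did not overlap (all genes 7.06%), though 0 reached an unadjusted p of 0.05 in edgeR. Upk3b, a uroplakin of mesothelium, was at 1084, 1449, 780.4 and 808 CPM in controls 1 to 4 and 281, 267 and 187 CPM in treated tumors 1 to 3 (log2 fold change -2.07, SE 1.004, unadjusted p = 0.0588). Msln, mesothelin, was at 106, 169, 110.5 and 174 CPM in controls 1 to 4 and 43.3, 24.8 and 51.1 CPM in treated tumors 1 to 3 (log2 fold change -1.81, SE 0.865, unadjusted p = 0.0553), and Wt1, a transcription factor of mesothelium and of serous carcinoma, was at 241, 239.6, 181 and 180.1 CPM in controls 1 to 4 and 116, 118 and 93.6 CPM in treated tumors 1 to 3 (log2 fold change -0.95, SE 0.540, unadjusted p = 0.102). Every treated tumor was below every control in these genes, control 2 and treated 2 included, and the list's median ranged from -1.27 to -0.98 over the omissions of single tumors. In TP1 controls, however, Upk3b ran from 26.4 to 820 CPM (median 41.3), a range that includes the TP2 treated values. The line in monoculture had all 11 at 1 CPM or more (Upk3b at 518 and 907 CPM in its 2 libraries), so HGS2 cells and host mesothelium cannot be told apart by them.

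Keratins had the same sign. In TP1 controls Krt7 was at 1.07 to 54.6 CPM (median 11.6), a range that includes the TP2 treated values given next. Krt7 was at 58.3, 62.3, 126 and 38.0 CPM in controls 1 to 4 and 12.7, 9.71 and 6.75 CPM in treated tumors 1 to 3 (log2 fold change -2.87, SE 1.02, unadjusted p = 0.0141), and Krt19 at 59.3, 124, 227 and 175 CPM in controls 1 to 4 and 45.5, 42.4 and 43.8 CPM in treated tumors 1 to 3 (log2 fold change -1.74, SE 0.895, unadjusted p = 0.0737), both without overlap, whereas Krt8 (-1.63) and Krt18 (-2.61) overlapped, with control 1 below treated 1. The 11 tested genes of the epithelial list had a median log2 fold change of -1.63, which was -0.33 without control 2, the tumor with the pancreatic transcripts and the highest Cldn3, Muc1 and Epcam. Among regulators of the epithelial-mesenchymal transition (median 0.088), Cdh2, N-cadherin, was at 166, 207, 85.4 and 86.1 CPM in controls 1 to 4 and 46.3, 41.5 and 55.7 CPM in treated tumors 1 to 3 (log2 fold change -1.51, SE 0.435, unadjusted p = 0.00391) and Zeb2 at 259.7, 198, 319 and 292 CPM in controls 1 to 4 and 395, 403 and 405 CPM in treated tumors 1 to 3 (log2 fold change 0.58, SE 0.179, unadjusted p = 0.00578), each without overlap. Cdh2 is abundant in the monocultured line (495 CPM on average), and Zeb2, which macrophages also express, less so (52.7 CPM).

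Stress genes and transcripts of other tissues were followed as well. The 20 genes of the unfolded protein and stress response had a median log2 fold change of -0.087, and Atf3, a stress-induced transcription factor, was at 6.91, 6.64, 6.54 and 5.86 CPM in controls 1 to 4 and 12.3, 11.2 and 14.1 CPM in treated tumors 1 to 3 (log2 fold change 0.95, SE 0.291, unadjusted p = 0.00579). Hypoxia and glycolysis genes had a median of -0.18 and mast cell and eosinophil genes, 7 of 12 tested, of -0.37, or -0.35 without control 2, 0.15 without treated 2 and 0.17 without both. The 15 pancreatic acinar genes had a median of -7.30, which was -1.08 without control 2, and the 5 tested erythroid genes of -2.10. Pnlip, pancreatic lipase, was at 0.423, 19473, 0.329 and 225 CPM in controls 1 to 4 and 0.235, 68.4 and 0.492 CPM in treated tumors 1 to 3. Its part in the other results was not tested beyond the covariate and the omission of control 2.

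Lower genes with the smallest p-values differed by moderate amounts. Stk39, a kinase that controls ion cotransporters, was at 58.6, 71.0, 62.5 and 50.1 CPM in controls 1 to 4 and 38.5, 31.9 and 32.0 CPM in treated tumors 1 to 3 (log2 fold change -0.83, SE 0.193, unadjusted p = 0.000810). Sdr39u1 was at 10.2, 13.2, 9.46 and 8.32 CPM in controls 1 to 4 and 4.87, 4.00 and 4.86 CPM in treated tumors 1 to 3 (log2 fold change -1.17, SE 0.272, unadjusted p = 0.000811). In both genes the groups did not overlap.

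Hadh, of mitochondrial fatty acid oxidation, was at 49.2, 58.2, 43.0 and 41.3 CPM in controls 1 to 4 and 30.4, 32.1 and 30.4 CPM in treated tumors 1 to 3 (log2 fold change -0.63, SE 0.155, unadjusted p = 0.00127), and Fdft1, squalene synthase of the cholesterol pathway, at 26.9, 35.5, 28.3 and 35.8 CPM in controls 1 to 4 and 23.1, 19.7 and 17.9 CPM in treated tumors 1 to 3 (log2 fold change -0.64, SE 0.168, unadjusted p = 0.00195). Cavin1, which shapes caveolae, was at 412, 348, 380.1 and 324 CPM in controls 1 to 4 and 266, 178 and 224 CPM in treated tumors 1 to 3 (log2 fold change -0.72, SE 0.200, unadjusted p = 0.00316), and Prex2, a Rac exchange factor, at 60.1, 64.8, 72.5 and 62.0 CPM in controls 1 to 4 and 26.9, 12.3 and 32.0 CPM in treated tumors 1 to 3 (log2 fold change -1.45, SE 0.407, unadjusted p = 0.00327). Other lower genes chosen by this rule were Tmem254c (-0.996), Paqr8 (-0.84), Rps21 (-0.60), Dnpep (-0.47), Aldh9a1 (-0.45), Sfxn1 (-0.46), Ccdc92 (-1.63) and Zfyve21 (-0.76), each a log2 fold change without overlap between the groups. In the monocultured line these 14 genes averaged between 8.20 CPM (Paqr8) and 1197 CPM (Cavin1). Reads of Rps21 and Tmem254c can be shared with near-identical copies.

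The 7 clusters of genes that the study formed on 60577 tumors, independently of these tumors, were also followed. Cluster 2 had the highest median log2 fold change in HGS2 at TP2 (0.57 over 102 genes), with 17 at an unadjusted p under 0.01 (all genes 1.27%) and 32 non-overlapping higher genes (all genes 6.35%), or 6 under 0.01 without control 2 and treated 2. Clusters 1 and 3 had medians of 0.46 and 0.41, clusters 4, 5 and 6 of 0.11, 0.06 and -0.09, and cluster 7 of -0.34 with 26 of 85 genes non-overlapping and lower (all genes 7.06%). Without treated 2 the median of cluster 1 was 0.15 and that of cluster 7 -0.19. No member of a cluster passed the adjusted test in edgeR.

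Whether the response had changed since 1 day after the last dose was asked with the interaction of treatment and time. No gene differed (0% called, 0 genes by edgeR and by the DESeq2 Wald test, smallest adjusted p 1), and at an unadjusted p under 0.05 there were 125 higher (0.77%) and 153 lower (0.942%). TP1 itself had 0 called genes (0%). The median of the interferon-stimulated list was 0.16 at TP1 and 1.66 at TP2, and that of MHC class I 0.40 and 0.85. Cdkn1a was at 20.2 to 41.3 CPM (median 24.7) in TP1 controls and 64.3 to 90.5 CPM (median 79.3) in TP1 treated tumors. Its log2 fold change was 1.44 at TP1 and 1.36 at TP2.

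Cxcl5 was at 3.36 to 10.2 CPM (median 7.21) in TP1 controls and 3.35 to 9.91 CPM (median 7.32) in TP1 treated tumors (log2 fold change -0.012, against 3.02 at TP2). Batf2 was at 3.37 to 10.9 CPM (median 6.25) and 7.02 to 9.54 CPM (median 9.13) in the same groups (0.32, against 1.78). The TP1 controls of these genes were spread as widely as the TP1 treated tumors or more. The 2 genes with the smallest p for the interaction were Cda (difference 2.09, SE 0.523) and Tubb4a (difference -4.90, SE 1.25), both with an adjusted p of 1 in edgeR. Without TP1 control 2 the genes at an unadjusted p under 0.01 went from 8 higher (0.0493%) and 7 lower (0.0431%) to 50 and 207.

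The response at TP2 differed from that of 60577 tumors in 598 genes that were higher in HGS2 relative to 60577 (3.68%) and 522 that were lower (3.21%), tested as an interaction in a joint fit with edgeR. In 60577 alone, 2142 genes rose (13.2%) and 1335 fell (8.22%) at TP2. The genes called lower had a median log2 fold change of -0.15 in HGS2 itself, and those called higher one near 0. With the replicate number as a block, which no label says pairs the tumors, 362 and 256 genes were called. Without 60577 control 2 there were 210 and 155, and the counts were below the full counts by more than 1.5 times in at least 1 direction also without HGS2 treated 1 (355 and 264), HGS2 treated 3 (403 and 300), 60577 treated 3 (373 and 321), 60577 treated 4 (353 and 277), or HGS2 control 2 and treated 2 together (340 and 334). In counts simulated for this comparison over 16241 genes, 26% of 100 genes changed by 1 and 62% of 100 changed by 2 on the log2 scale were found.

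Proliferation genes differed in nearly every member. Of 28 DNA replication genes 26 were called higher in HGS2 relative to 60577 (all genes 3.68%). The count was 23 with the block, 22 without 60577 control 2 and 20 without both HGS2 tumors numbered 2. The list's median log2 fold change was -1.76 in 60577 and 0.059 in HGS2. Of 25 mitosis genes 23 were called (19, 12 and 12 in the same order), with medians of -2.30 and -0.055. Mcm6, a subunit of the replicative helicase, was at 62.8 to 112 CPM (median 75.4) in HGS2 controls and 70.5 to 83.4 CPM (median 76.0) in HGS2 treated tumors. In 60577 it was at 171 to 206 CPM (median 187) in controls and 23.1 to 41.5 CPM (median 28.0) in treated tumors (difference 2.55 on the log2 scale, SE 0.409, adjusted p = 0.00281).

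Cdt1, which licenses replication origins, was at 19.4 to 35.3 CPM (median 21.7) and 26.0 to 34.5 CPM (median 26.3) in HGS2 controls and treated tumors, and at 60.4 to 66.7 CPM (median 64.3) and 13.1 to 18.3 CPM (median 16.3) in those of 60577 (difference 2.23 on the log2 scale, SE 0.355, adjusted p = 0.00281). Kif11, the kinesin that separates spindle poles, was at 38.1 to 74.8 CPM (median 53.9) and 45.1 to 59.4 CPM (median 53.4) in HGS2 and at 69.1 to 74.7 CPM (median 72.8) and 11.3 to 17.2 CPM (median 12.4) in 60577 (difference 2.37 on the log2 scale, SE 0.492, adjusted p = 0.00664). The treated HGS2 tumors lay within the range of their controls in these 3 genes, while all treated 60577 tumors were below all 60577 controls.

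Promoters of mitosis genes are shown because 23 of the 25 members were called in this comparison. Of the 21 mitosis genes with a RefSeq window, 16 (76.2%) held TTTGAA, a form of the cell cycle homology element, and 18 (85.7%) held CCAAT, against 20.2% and 41.1% of all 27025 genes, both strands counted. The 2 motifs do not overlap in the windows below, which give the 250 bases before the start with both motifs in capitals. The other RefSeq window of Prc1, whose start lies farther upstream, held no TTTGAA in its 250 bases.
Kif11 (chr19:37376132-37376381, plus strand): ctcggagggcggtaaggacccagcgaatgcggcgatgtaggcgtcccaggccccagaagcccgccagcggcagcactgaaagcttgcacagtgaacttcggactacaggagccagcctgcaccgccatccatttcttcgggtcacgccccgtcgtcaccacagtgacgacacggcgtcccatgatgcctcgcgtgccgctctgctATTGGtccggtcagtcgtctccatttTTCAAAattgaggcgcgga
Prc1 (chr7:80294226-80294475, plus strand): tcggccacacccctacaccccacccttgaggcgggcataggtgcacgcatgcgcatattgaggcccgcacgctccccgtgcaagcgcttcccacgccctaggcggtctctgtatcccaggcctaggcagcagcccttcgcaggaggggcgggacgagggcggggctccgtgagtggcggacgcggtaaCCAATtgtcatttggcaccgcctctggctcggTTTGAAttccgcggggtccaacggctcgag
Prc1, which bundles microtubules between the separating chromosomes, was at 30.4 to 59.9 CPM (median 46.1) and 42.8 to 45.1 CPM (median 44.4) in HGS2 controls and treated tumors and at 55.5 to 64.5 CPM (median 60.9) and 8.08 to 15.8 CPM (median 10.8) in those of 60577 (difference 2.35 on the log2 scale, SE 0.4997, adjusted p = 0.00722).

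**Figure D4:**
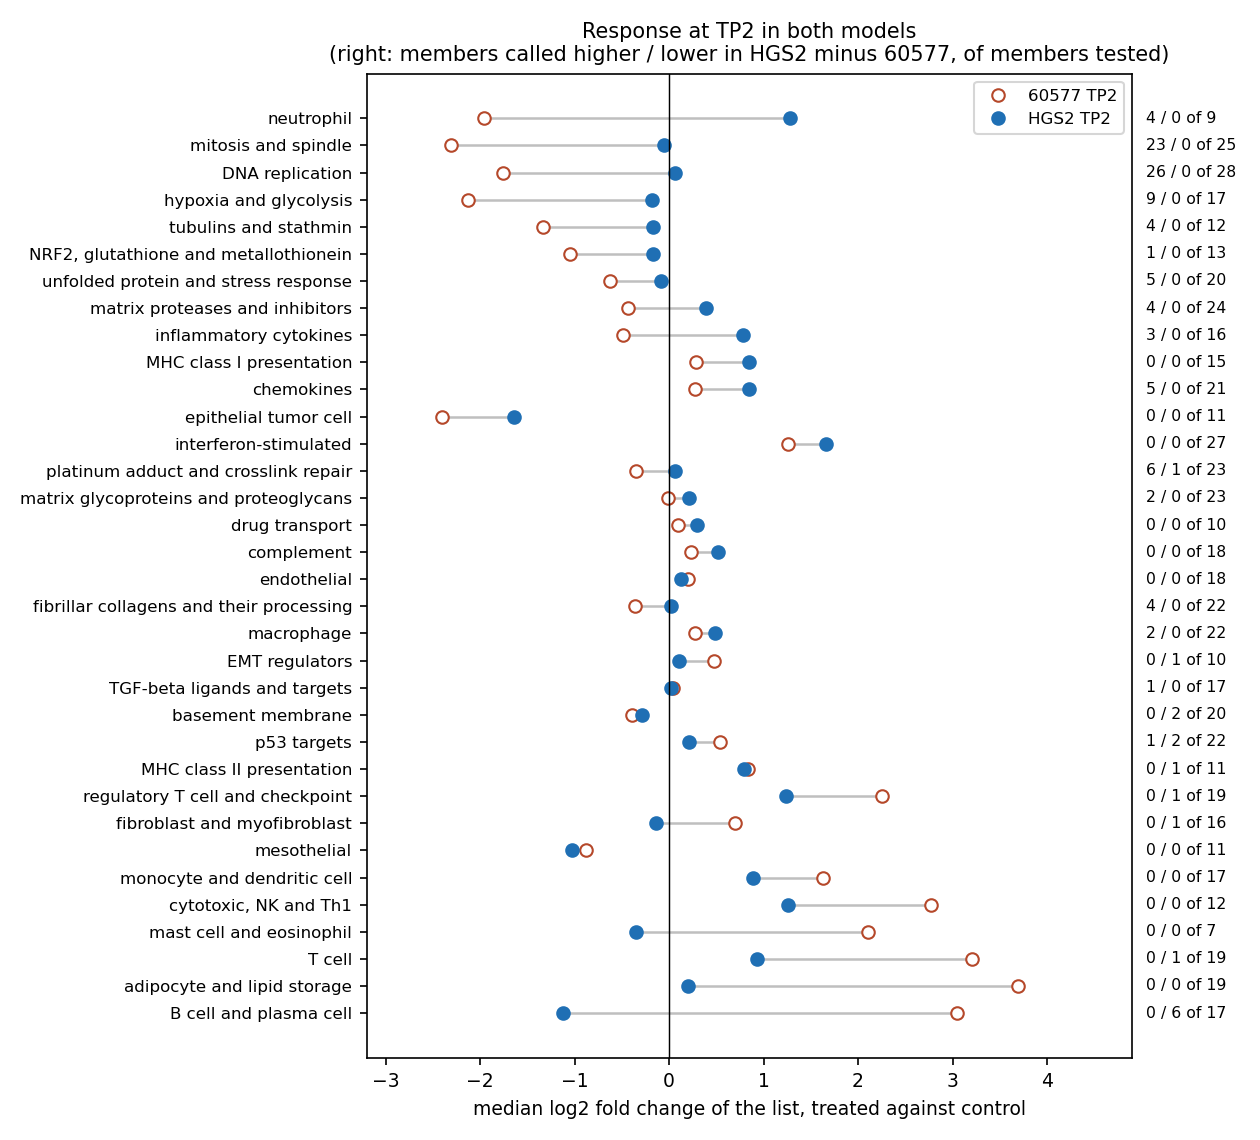
Median log2 fold change of treated against control tumors at TP2 for the gene lists in 60577 (open circles) and HGS2 (filled circles), in a joint fit of both models. Numbers at the right give the members called higher and lower in HGS2 relative to 60577 of those tested: DNA replication and mitosis are at -1.76 and -2.30 in 60577 and near 0 in HGS2, while the interferon-stimulated and MHC class I lists have 0 called members.

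Hypoxia and glycolysis genes followed the same order, with 9 of 17 called higher (all genes 3.68%). The count was 8 with the block and 3 without 60577 control 2. The list's medians were -2.13 in 60577 and -0.18 in HGS2. Eno1, a glycolytic enolase, was at 378 to 944 CPM (median 624) and 603 to 748 CPM (median 660.3) in HGS2 controls and treated tumors and at 973 to 2635 CPM (median 1061) and 179.9 to 335 CPM (median 231) in those of 60577 (difference 2.73 on the log2 scale, SE 0.473, adjusted p = 0.00318). Of 23 repair genes 6 were called higher (all genes 3.68%) and 1, the damage recognition factor Xpa, named after its values were seen, was called lower (all genes 3.21%) in HGS2 relative to 60577. With the block, and also without 60577 control 2, the counts were 6 and 0. Of the other genes with the smallest p, Ptgr1, Pdik1l and Syce2 were higher, and Zfp300, Fyco1, Uggt2, Ankrd12, Rbms3 and Hoxb5 lower, in HGS2 relative to 60577, each with an adjusted p of at most 0.00281 (edgeR).

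Cxcl5, Il1b and Spp1 had fitted log2 fold changes of opposite sign in the models, where the difference was called and the change in HGS2 alone was not. Cxcl5 was at 0.403 to 5.76 CPM (median 1.66) in HGS2 controls and 12.3 to 26.0 CPM (median 20.1) in treated tumors, and in 60577 at 3.59 to 35.9 CPM (median 7.15) and 1.004 to 2.23 CPM (median 1.93) (difference 6.16 on the log2 scale, SE 1.03, adjusted p = 0.00281). Il1b had log2 fold changes of 1.88 in HGS2 and -1.44 in 60577 (difference 3.32 on the log2 scale, SE 0.877, adjusted p = 0.0212), and Spp1 of 2.38 and -3.10 (difference 5.48 on the log2 scale, SE 1.32, adjusted p = 0.0134). Il1b lost its call with a single tumor left out (adjusted p up to 0.0695, edgeR), and Spp1 with the block (adjusted p = 0.0661, edgeR).

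No member of the interferon-stimulated (27), MHC class I (15) or mesothelial (11) lists was called different between the models by edgeR, which does not show that the responses were equal. Their medians were 1.26, 0.28 and -0.87 in 60577 and 1.66, 0.85 and -1.03 in HGS2. The median difference of the interferon-stimulated members was 0.39, and it turned to -0.59 without HGS2 control 2 and treated 2. For MHC class I the same 2 values were 0.56 and 0.36, and for the mesothelial list -0.60 and -0.46. B cell genes were called lower in HGS2 relative to 60577 in 6 of 17 cases (all genes 3.21%). The count was 0 with the block and 0 without 60577 control 2. T cell genes had medians of 3.20 in 60577 and 0.93 in HGS2, with 1 of 19 members called lower (all genes 3.21%). That member was Cd28 (difference -3.30 on the log2 scale, SE 0.839, adjusted p = 0.0174, and adjusted p = 0.0544 with the block, edgeR).

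Treated tumors at TP3, 21 days after the last dose, were compared with treated tumors at TP2, with no TP3 controls to set beside them. No gene passed edgeR's test (0% called, smallest adjusted p 0.177), with 826 higher (5.09%) and 864 lower (5.32%) at an unadjusted p under 0.05 and 154 (0.948%) and 225 (1.39%) under 0.01, and the DESeq2 Wald test called 35 and 70. This comparison and that with the TP2 controls share the treated TP2 tumors, so their values are only set side by side. Cxcl5 was at 0.365 to 5.43 CPM (median 1.59) in TP2 controls, 11.4 to 24.2 CPM (median 18.9) in TP2 treated and 1.41 to 3.45 CPM (median 1.504) in TP3 treated tumors. Cd274 was at 4.68 to 21.96 CPM (median 11.5), 28.4 to 42.6 CPM (median 39.4) and 7.68 to 16.8 CPM (median 10.5) in the same order.

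In both genes the TP3 tumors lay within the range of the TP2 controls. Krt7 was at 38.0 to 126 CPM (median 60.3) in TP2 controls, 6.75 to 12.7 CPM (median 9.71) in TP2 treated and 12.8 to 72.5 CPM (median 14.2) in TP3 treated tumors, which overlapped the controls. Hdc, histidine decarboxylase, and Lilr4b, a leukocyte receptor, had the smallest p-values. Hdc was at 1.69 to 4.09 CPM (median 2.69), 5.08 to 5.70 CPM (median 5.23) and 0.805 to 1.47 CPM (median 0.924), and Lilr4b at 12.3 to 27.1 CPM (median 19.8), 34.0 to 52.3 CPM (median 46.2) and 9.82 to 12.6 CPM (median 12.5), in the same order of groups. From treated TP2 to treated TP3 tumors the median log2 difference was -1.81 for the interferon-stimulated list, -1.02 for MHC class I and -1.54 for regulatory T cells and checkpoints, against 0.031 over all genes. These lists were among those with higher values in treated TP2 tumors. In the interferon-stimulated list treated 2 stood at 2.06, against 0.12 in treated 1 and 0.51 in treated 3. The list differences to TP3 are not given without treated 2.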

How the data were processed

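Snap-frozen omental tumor pieces were profiled by RNA sequencing after rRNA depletion (strand-specific 150 bp paired reads). Per the labels and the study's methods, the authors trimmed reads with Trim Galore 0.6.5, aligned them with STAR 2.7.0f to mm10/GRCm38 and estimated gene-level abundance with RSEM. The authors deposited expected counts without normalization, and whether RSEM used strand is not given in the sources used here, so overlapping and antisense genes are uncertain. Gene names and positions came from GENCODE M21, matched by gene ID (260 of the genes had no entry and 55227 had one).

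Expected counts were rounded, scaled by TMM and tested with edgeR 4.0.16 (glmQLFit and glmQLFTest, two-sided, Benjamini-Hochberg) in R 4.3.3. Genes needed 1 CPM in 25% of 33 tumors. The 16 HGS2 tumors were fitted together by group so that they shared 1 estimate of the spread. The interaction with 60577 was fitted on the 33 tumors. Group came from the treatment label. Log2 CPM used a prior count of 2. Distances used an exact permutation test. limma 3.58.1 and DESeq2 1.42.0 were alternatives, with other scaling, no filter, a length and GC offset, the replicate block and each tumor left out. The test was checked on simulated data. Depth sets the precision only in part, since p-values measure the spread between tumors of 1 experiment.

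Same-numbered control and treated tumors deviated weakly together from their group means at TP2. The correlations were 0.138, 0.294 and 0.296 in HGS2, where control 4 has no partner, and 0.144, 0.114 and 0.134 in 60577. At TP1 the same-numbered HGS2 tumors did not deviate together (-0.164, -0.279 and 0.0869). No label says that the numbers pair tumors, so the block was run as an alternative only. No pair of libraries was a copy (chi-square divided by its degrees of freedom ran from 44.4 to 834 over 9 pairs).

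The 36 gene lists (651 members) and the comparisons were chosen with earlier results of these data known. Genes were named by rule: the 15 higher and 15 lower protein coding genes with the largest fold change among those called, filled by smallest unadjusted p, the 2 smallest p of each list or up to 6 called members, Fn1, Vcan, Col1a1, Lox, Loxl2, Mki67 and Cd274, the 6 smallest p in each direction of an interaction or 2 where none was called, and cell type markers. Results of a few genes that the rule names are not reported here. Further list members given as examples or as defining genes of a list were chosen after their values were seen. Promoter sequences were taken from RefSeq (GRCm38.p6). Figures were drawn with matplotlib 3.10.9 in Python 3.11.15.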

Additional observations from a re-analysis of the deposited data

Results flagged for a closer look

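Among 142 values tested over the 4 TP2 controls, 7 had 1 tumor set apart from the other 3 by a gap, as a share of the range, over Dixon's 95% critical value, and chance gives about 1 in 20. Control 2 was the low tumor for H2-T23 (0.877), H2-D1 (0.849), H2-DMb1 (0.858) and Cd8a (0.834) and for the drug transport list (0.862), and the high tumor for the endothelial list (0.895). Control 1 was the low tumor for Spp1 (0.865). Control 2 also carried 12.6% of its counts in pancreatic acinar genes. Whether this share has a part in its low MHC and T cell values was not tested beyond the values without it.

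The response at TP2 differed between HGS2 and 60577 by the test of the interaction for the following genes chosen by smallest p, given as the difference on the log2 scale. Ptgr1 (1.77), Cdt1 (2.23), Mcm6 (2.55), Pdik1l (1.27) and Syce2 (2.80) were higher in HGS2 relative to 60577. Zfp300 (-4.13), Fyco1 (-1.44), Uggt2 (-1.79), Ankrd12 (-1.48), Rbms3 (-1.99) and Hoxb5 (-2.91) were lower. These 11 genes stayed called with each tumor left out in turn and with the replicate block.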

How the results depend on the processing

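In the comparison of treated and control HGS2 tumors, edgeR called 0 genes in either direction under every scaling, filter, block and omission run. The exception was the fit of the 7 tumors alone, which called 1 lower. limma-voom, run with the main filter and scaling only, called 0, and the DESeq2 Wald test called 5 higher and 3 lower. The comparison of TP3 with TP2 treated tumors gave 35 higher and 70 lower by DESeq2 and 0 otherwise. Against 60577, the 598 higher and 522 lower calls became 362 and 256 with the replicate block and 340 and 334 without HGS2 control 2 and treated 2, and the lower calls became 277 with no filter, 880 by DESeq2, 346 with all 17 HGS2 tumors and 260 with a length and GC offset and the block. With each tumor left out they ran from 210 to 825 higher and from 155 to 649 lower. The block changed no call in the other comparisons, and beside these counts its lost calls among the genes named are given in the report. The difference in distance turned to -0.00472 over the 2000 most variable genes and -0.000542 with no filter, and ran from -0.00673 to 0.0138 with each tumor left out.

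Of the named genes' log2 fold changes, these changed sign, all under a size of 0.31. Without HGS2 control 2 and treated 2, Gstp1 was 0.035, Esam 0.029, Col1a1 -0.30, Lox -0.19, Loxl2 0.044 and Mki67 -0.28. With the pancreatic acinar covariate, Cela1 was 0.14, Fn1 -0.018, Lox -0.016 and Mki67 -0.055. With the block, Col1a1 was -0.18 and Mki67 -0.037, and with a length and GC offset as well, -0.099 and -0.0021. Lox was -0.019 with the offset alone. With each tumor left out, Gstp1 ran from -0.73 to -0.19, Esam ran from -1.05 to -0.32, Cela1 ran from -7.93 to -2.40, Fn1 ran from -0.14 to 0.34, Col1a1 ran from -0.22 to 0.31, Lox ran from -0.19 to 0.17, Loxl2 ran from -0.82 to 0.081 and Mki67 ran from -0.13 to 0.24. All other named genes kept their direction in every setting run, and 9 gained a call by DESeq2. The omission of both tumors and the acinar covariate were chosen after the data were seen.

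The number of tumors and their depth were not varied separately, and at those of these tumors the simulated test found 20% of changes of 1 and 67% of changes of 2 on the log2 scale in the first comparison. With control 2 or treated 2 left out, most interferon-stimulated members lost their unadjusted p under 0.01, and the cause was not tested.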
